A study of Mus musculus with 4 samples.

Results

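Cytoplasmic ribosomal protein genes were taken as the non-control probes whose deposited gene name is Rpl or Rps followed by a number, or Rplp0 to Rplp2 or Rpsa, leaving out Rps6k kinases and pseudogene names. This gave 86 genes with 178 probes, of 31895 named genes on the array, and 82 of them were bright enough to be tested: 46 of the large subunit, 30 of the small subunit, 5 paralogs and Rps19bp1. Rps19bp1 fits the naming rule but encodes a protein that binds Rps19, not a ribosomal subunit, and it is kept as a member under that description. The remaining 4 genes, Rpl10l, Rpl39l, Rpl3l and Rps4y2 (Rps4l in RefSeq), were well above background on at most 1 array in either RNA.

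The RNAs came from adult C3H/HeN mouse primary skin epithelial cells sorted as CD49f+ CD34+. The 15p cells had been carried through repeated rounds of growth for 10 days with Wnt-3a on 60-mm collagen-coated dishes and of re-sorting, and were taken at culture 15, whereas the 0p cells were sorted directly from the primary cells, although the labels list Wnt-3a for both RNAs. Each of 2 biological replicates was measured on a pair of two-colour Agilent arrays, 1 with 15p RNA in Cy5 and 0p RNA in Cy3 and 1 with the dyes swapped. Whether different animals stand behind the replicates is not given, and p-values therefore measure only the spread between these samples.

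Cytoplasmic ribosomes are built from ribosomal RNA and a fixed set of proteins made in near-equal amounts, and they take up a large share of the messenger RNA of growing cells. Most of these messenger RNAs begin with a C followed by a run of pyrimidines, the terminal oligopyrimidine or TOP start, through which mTOR signalling controls their translation. In mouse skin, mutations of Rps19 or Rps20 raise p53 in keratinocytes and darken the skin, and free Rpl5 and Rpl11 can bind Mdm2, the inhibitor of p53.

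The TOP start is a feature the naming rule did not use, and it is shown here for 6 members, with 2 of the members that lack it at the annotated base, both paralogs, as examples. Of 64 members with a RefSeq promoter entry (GRCm38.p6), 13 genes (20.3%) have an annotated start that reads C followed by 4 or more C or T on the transcribed strand, against 3.01% of 27025 genes with an entry, and 51 members do not. Such a run (C and 4 of C or T) begins within 15 bases of the annotated start in 45 members (70.3%), against 44.9% of all genes with an entry, and Rpl22l1 and Rpl36al are among these 45. Each line gives 15 bases before and 15 bases from the annotated start, 5′ to 3′ on the gene's own strand, with the pyrimidine run from the first transcribed base in capitals. The examples were chosen after the starts were seen, and an annotated start can lie some bases from the one cells use.
Rps6, chr4:86857353-86857382, minus strand: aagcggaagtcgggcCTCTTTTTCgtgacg
Rpl38, chr11:114668565-114668594, plus strand: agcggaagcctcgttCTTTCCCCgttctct
Rps18, chr17:33955651-33955680, minus strand: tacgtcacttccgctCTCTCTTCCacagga
Rpl15, chr14:18270972-18271001, minus strand: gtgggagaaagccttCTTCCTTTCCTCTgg
Rps15a, chr7:118116133-118116162, minus strand: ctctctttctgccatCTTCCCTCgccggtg
Rps27, chr3:90213634-90213663, minus strand: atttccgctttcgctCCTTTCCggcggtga
Rpl22l1, chr3:28805493-28805522, plus strand: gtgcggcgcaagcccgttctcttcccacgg
Rpl36al, chr12:69184053-69184082, minus strand: cattcccgtcgctcaggttcagttccgact
The first 6 lines carry runs of 7 to 13 pyrimidines, and the last 2 have none at the annotated base.

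Of the array as a whole, 55.5% to 68.3% of probes were well above background per RNA and array, no spot was saturated, and 17362 genes were tested. Of the 4 arrays, that of replicate 2 carrying 15p RNA in Cy5 stood apart, with an SD of 0.29 across the log2 ratios of all tested genes against 0.13 to 0.14 on the other 3. Each replicate had its own slide, and the effects of slide and replicate cannot be told apart. Markers of basal keratinocytes (Krt5, Krt14, Itga6, Itgb4, Trp63, Cdh3 and Col17a1) were above background on all arrays in both RNAs, 7 of 7, with a summed intensity of 319265 to 435231 in 15p RNA and 292810 to 395384 in 0p RNA. Of the bulge stem cell markers 3 of 7 were above background on all arrays, and Cd34, used for the sort, was so on 0 arrays in 15p RNA and 1 array in 0p RNA. Lhx2 and Lgr5, also of that list, were above background on 0 arrays in both RNAs. The summed intensity of the bulge list was 5533 to 7068 in 15p RNA and 4904 to 7441 in 0p RNA. Markers of other cell types had lower summed intensities than the bulge list, in lists of 4 to 6 genes against 7. Above background on all arrays were 1 of 6 for fibroblasts, 3 of 6 for immune cells, 2 of 5 for melanocytes and 2 of 4 for endothelium. Their summed intensities in 15p RNA were 495 to 559 for fibroblasts, 819 to 1187 for immune cells, 612 to 797 for melanocytes and 2514 to 3150 for endothelium. In 0p RNA they were 477 to 586 for fibroblasts, 884 to 1007 for immune cells, 634 to 779 for melanocytes and 2521 to 3294 for endothelium. Pdgfra, Lum, Dcn, Lyz2, Tyrp1, Cdh5 and Tek were above background on 0 arrays in both RNAs. Their part in the ribosomal protein values was not tested, and in RNA from a mixed sample fewer cells of a type and less RNA per cell cannot be told apart.

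The ribosomal protein genes stayed close together and close to 0 in the comparison of 15p with 0p cells. The dye-averaged log2 ratio of 15p over 0p had a median of -0.0036 over the 82 genes and of 0.0025 over all 17362, and it ran from -0.11 for Rpl7 to 0.14 for Rpl13. It was positive in 40 genes and negative in 42. The ratios varied less from gene to gene than those of all tested genes, with an SD of 0.050 against 0.076, and about as much as those of the 74 mitochondrial ribosomal protein genes, with an SD of 0.052. Large and small subunit genes had medians of -0.0036 and -0.0029. The sign of so small a median turned with the scaling: with median centring in place of loess it was 0.080, with 93.9% of members positive, where all tested genes had a median of 0.025.

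None of the 82 genes passed an adjusted p of 0.05 in limma in either direction, and of all tested genes 0% were called higher and 0% lower, the lowest adjusted p being 0.749. At an unadjusted p under 0.05 in limma, 1 gene (1.22%) was higher in 15p cells (Rpl13) and 0 (0%) lower, against 2.92% and 3.38% of all tested genes. Over 82 genes these shares differ by only a few genes, and nothing is read from the difference. The 95% interval of the ratio lay within 1.2-fold of equality for 79 genes and within 1.5-fold for 82, near the 91.9% and 99.7% of all tested genes, with a median half-width of 0.12 on the log2 scale. When the first replicate's array carrying 15p in Cy5 was left out, limma called 3 members higher (Rpl13, Rplp1 and Rps15) and 4 lower (Rpl7, Rpl5, Rpl23 and Rpl22l1), in a fit that gave every gene the same spread and called 3117 of all tested genes. Leaving out any other array, that of the second replicate with the wide spread included, called 0 members.

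**Figure D1:**
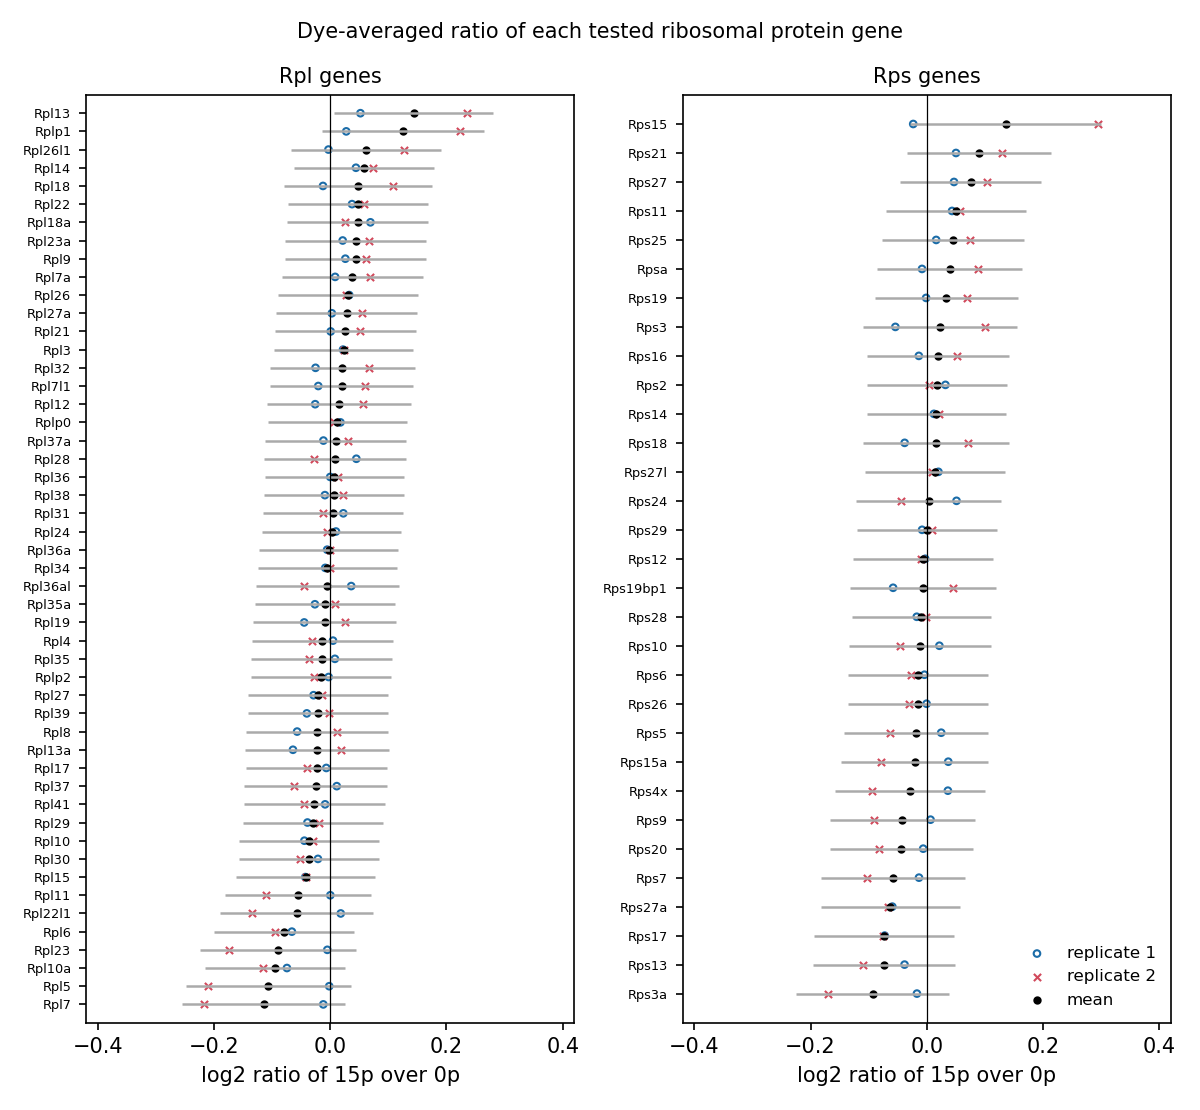
Dye-averaged log2 ratio of 15p over 0p for 81 of the 82 tested genes, Rpl genes left and Rps genes right, with replicate 1 (open circle), replicate 2 (cross), their mean (filled circle) and its 95% interval from limma (line). The means run from -0.11 to 0.14, and replicate 2 lies farther from 0 than replicate 1 in most of them.

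Replicate 2 was farther from 0 than replicate 1 in 60 of 82 members, against 74.0% of all tested genes. The SD across members was 0.0321 in replicate 1 and 0.0896 in replicate 2. The sign was shared between replicates in 46 members (56.1%), against 57.0% of all tested genes. As a description over 82 genes of the same arrays, the replicates' ratios correlated with r = 0.18 (Pearson) and rho = 0.16 (Spearman).

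Among large subunit genes the highest ratio was that of Rpl13, whose log2 intensities were 16.96, 16.74, 17.37 and 16.86 in 15p RNA, against 16.72, 16.88, 16.67 and 17.09 in 0p RNA, in the order replicate 1 with 15p in Cy5, replicate 1 with 15p in Cy3, and the same for replicate 2. The 15p value was the higher when 15p carried Cy5 and the lower when it carried Cy3, in both replicates, so the groups overlapped. The mean log2 ratio was 0.14 ± 0.13 (SD, n = 2). In limma its unadjusted p was 0.041 and its adjusted p 0.749. Its replicates gave 0.052 and 0.24. Rpl13 had 3 kept probes, with mean ratios between 0.052 and 0.14, and the lowest was of a probe that the file places on another chromosome than the gene.

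The acidic stalk of the large subunit, which recruits elongation factors, is made of Rplp0, Rplp1 and Rplp2. Rplp1 gave log2 ratios of 0.028 in replicate 1 and 0.22 in replicate 2, with a mean of 0.13 ± 0.14 (SD, n = 2). Rplp0, which anchors the stalk, was at 0.012 ± 0.0073, and Rplp2 at -0.015 ± 0.018. The interval of each of the 3 included 0, so that no change was detectable in any of them.

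At the low end, Rpl7 had log2 intensities of 16.88, 16.32, 17.08 and 16.89 in 15p RNA, against 16.32, 16.90, 17.26 and 17.14 in 0p RNA. The 15p value was lower on 3 of the 4 arrays and higher on the first. Its replicates were -0.012 and -0.22, with a mean of -0.11 ± 0.15 (SD, n = 2; adjusted p = 0.753 in limma). Rpl5, which carries 5S ribosomal RNA into the large subunit together with Rpl11, had replicates of -0.0017 and -0.21, and its mean was -0.11 ± 0.15. Rpl11 was at -0.055 ± 0.079. Rpl23, another large subunit protein that can bind Mdm2, was at -0.090 ± 0.12. In Rpl5, Rpl7, Rpl11 and Rpl23 the value of replicate 1 was within 0.012 of 0 and that of replicate 2 carried the mean.

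In Rpl10a and Rpl6 both replicates contributed to a low mean. Rpl10a, at the stalk on the other side of the large subunit, was at -0.074 and -0.12, a mean of -0.095 ± 0.029. Rpl6 was at -0.066 and -0.095, a mean of -0.080 ± 0.020. The probes of Rpl6 disagreed most of all members: its 4 kept probes had mean ratios from -0.080 to 0.11, the positive extreme coming from a probe with a log2 intensity of 7.31. Over the 52 members with several kept probes the median range between probes was 0.044.

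Members with known skin or patterning phenotypes in mice lay near 0. Rpl24, mutated in the Belly spot and tail mouse, had log2 ratios of 0.59 and 0.52 with 15p in Cy5 and of -0.57 and -0.53 with 15p in Cy3, which averaged to 0.0025 ± 0.011 (SD, n = 2). Rpl38, mutated in Tail-short mice, averaged 0.0062 ± 0.022. Rpl27a, mutated in the sooty foot ataxia mouse, was at 0.028 ± 0.036. Among members named for their role in the ribosome, Rpl10, which joins the large subunit late and is needed for subunit joining, was at -0.037 ± 0.011. Rpl3, which shapes the peptidyl transferase centre, was at 0.023 ± 0.0012.

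Of the small subunit, Rps15, a protein of its head, had the highest ratio and the widest spread among named members. Its log2 intensities were 16.50, 16.43, 17.05 and 16.21 in 15p RNA, against 16.43, 16.55, 16.10 and 16.57 in 0p RNA. On the third array of that order the 15p value of 17.05 was the highest of those listed and the 0p value of 16.10 the lowest, which gave a ratio of 0.95. The replicates were -0.023 and 0.29, with a mean of 0.14 ± 0.22 (SD, n = 2; adjusted p = 0.753 in limma).

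Rps21 and Rps27 had means of 0.090 ± 0.056 and 0.075 ± 0.040. Rps21 and Rps27, both proteins of the small subunit, were above 0 in both replicates. Rps3a was the lowest small subunit gene, at -0.093 ± 0.11. Rps7, a small subunit protein that can bind Mdm2, was the only member with a negative ratio on all 4 arrays, against 3.12% of all tested genes. Its ratios were -0.0081, -0.019, -0.17 and -0.033, a mean of -0.058 ± 0.063. A positive ratio on all 4 arrays occurred in 0 members, against 3.67% of all tested genes. Cy5 was the brighter dye on all 4 arrays in 52 members, against 18.1% of all tested genes. Cy3 was so in 4 members, against 14.1%. In such genes the sign of the ratio turns with the dye swap, so they cannot have the same sign on all 4 arrays. Nothing is therefore read from the difference between members and all tested genes in these same-sign counts.

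Rps6, the small subunit protein phosphorylated by S6 kinases below mTOR, had log2 intensities of 16.73, 16.49, 16.87 and 16.69 in 15p RNA, against 16.46, 16.77, 16.59 and 17.02 in 0p RNA. The order of the RNAs turned with the dye, and the mean ratio was -0.015 ± 0.016 (SD, n = 2). Rps19 and Rps20, the genes of the dark skin mice, were at 0.034 ± 0.049 and -0.044 ± 0.054. Rpsa, also known as the laminin receptor, was at 0.040 ± 0.068, and its 4 kept probes ranged from -0.0098 to 0.17. Rps4x, encoded on the X chromosome, was at -0.029 ± 0.092.

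Further members named by the rule also lay near 0. Rpl13a, which also acts outside the ribosome in human monocytes as an inhibitor of translation, was at -0.023 ± 0.059, Rpl39 at -0.021 ± 0.027, Rpl26 at 0.030 ± 0.0033, Rpl34 at -0.0046 ± 0.0055 and Rpl21 at 0.026 ± 0.035. Of the small subunit, Rps14 was at 0.016 ± 0.0060, Rps15a at -0.021 ± 0.082 and Rps18 at 0.016 ± 0.076. The binding partner Rps19bp1 was at -0.0069 ± 0.072. The interval of each of these included 0.

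The paralogs that were measured could be set beside the gene they resemble, each ratio within its own probe. Rpl22l1 was at -0.058 ± 0.11, with 0.018 in replicate 1 and -0.13 in replicate 2, and Rpl22 at 0.048 ± 0.015. Rpl36al was at -0.0047 ± 0.058 and Rpl36a at -0.0025 ± 0.0039. Rps27l, a p53 target in human cells, was at 0.014 ± 0.0078, and Rps27 at 0.075 ± 0.040. Rpl7l1 was at 0.020 ± 0.057 and Rpl26l1 at 0.062 ± 0.091. No paralog was called, and the difference from its partner was not tested. The testis and muscle paralogs Rpl10l, Rpl39l and Rpl3l and the gene listed as Rps4y2 had log2 intensities of 5.96 to 6.60 in 15p RNA and 5.83 to 6.85 in 0p RNA.

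The sign of most members' ratios turned with the dye. The members' median log2 ratio of 15p over 0p was 0.25 in replicate 1 and 0.24 in replicate 2 where 15p carried Cy5, and -0.23 and -0.22 where 15p carried Cy3. The medians of all tested genes on the same 4 arrays lay between -0.011 and 0.013. With 15p in Cy5, 67 and 63 of the 82 members were positive, and with 15p in Cy3, 70 and 71 were negative. The 2 arrays of replicate 1 correlated with r = -0.95 across members and those of replicate 2 with r = -0.71, against -0.55 and -0.40 across all tested genes, as descriptions over genes of the same RNAs.

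**Figure D2:**
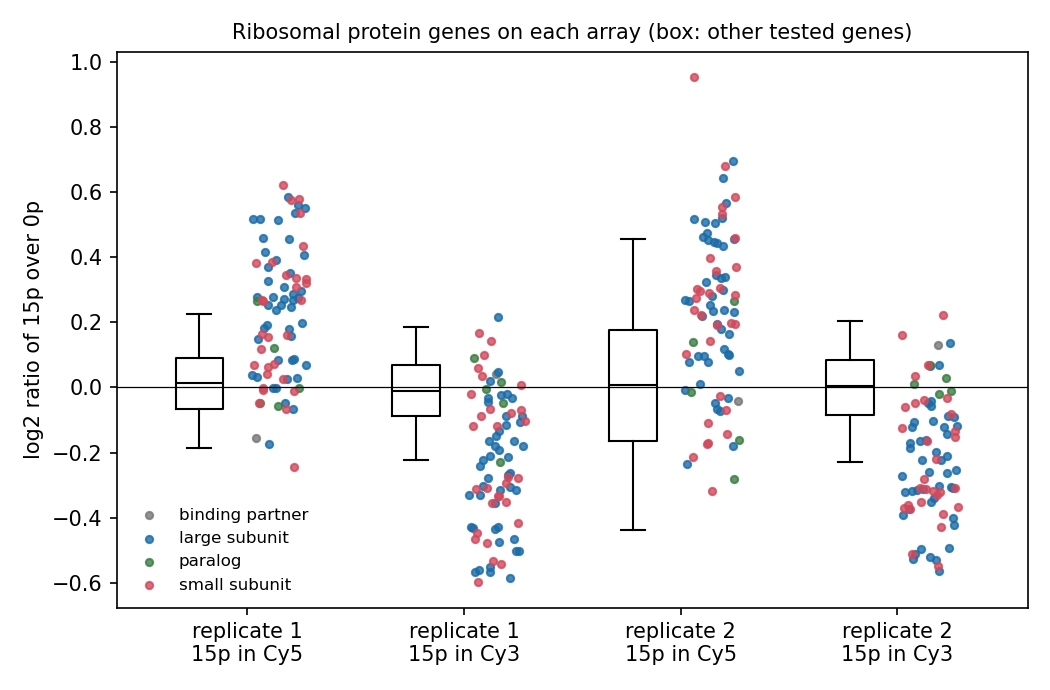
Log2 ratio of 15p over 0p on each of the 4 arrays before dye averaging: points are the 82 members by class, boxes are the quartiles of the other tested genes with whiskers at the 5th and 95th percentile. The members' medians are 0.25 and 0.24 with 15p in Cy5, and -0.23 and -0.22 with 15p in Cy3.

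The ratio of Cy5 over Cy3, in which the 15p and 0p difference cancels within a pair, was tested in the same way. Its median was 0.21 over the members and 0.0066 over all tested genes, and it ran from -0.17 for Rps15a to 0.57 for Rps14. Limma called 37 of 82 members higher in Cy5, against 2.55% of all tested genes, and 0 lower, against 1.26%. The called members were 22 of 46 large subunit genes, 15 of 30 small subunit genes and 0 of 5 paralogs. The ratio was positive on all 4 arrays in 52 members, against 18.1% of all tested genes, and negative on all 4 in 4, against 14.1%.

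Limma gave all genes a common spread in this fit, and the calls moved with how the intensities were scaled. With the software's own processed intensities 0 members were called and the median was 0.056, with median centring in place of loess 82 were called and the median was 1.14, and with the mean of a gene's probes 21 were called and the median was 0.14. Of all 17362 tested genes 192, 10044 and 416 were called higher in Cy5 under these 3 settings (1.11%, 57.9% and 2.4%), and with median centring their median was 0.36. The sign of the members' median was positive under each of these.

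The largest Cy5 over Cy3 ratios were alike in both replicates. Rps14, a small subunit protein of the platform, gave 15p over 0p ratios of 0.62 and 0.55 with 15p in Cy5 and of -0.60 and -0.51 with 15p in Cy3, so that Cy5 was the brighter dye each time, by 0.57 ± 0.055 (SD, n = 2; adjusted p = 6.5e-08 in limma). Rpl24 was at 0.55 ± 0.037 and Rpl34 at 0.53 ± 0.016. The stalk base Rplp0 was at 0.44 ± 0.090 and Rps6 at 0.29 ± 0.020. At the other end were Rps15a at -0.17 ± 0.096, Rps19bp1 at -0.092 ± 0.0087, Rps18 at -0.086 ± 0.17 and Rpl21 at -0.066 ± 0.026. Rps15 and Rpl7 were called higher in Cy5 although their replicates differed widely, with 0.094 and 0.66 for Rps15 and 0.57 and 0.036 for Rpl7. Across the 82 members the Cy5 over Cy3 ratios of replicates 1 and 2 correlated with r = 0.65, as a description.

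**Figure D3:**
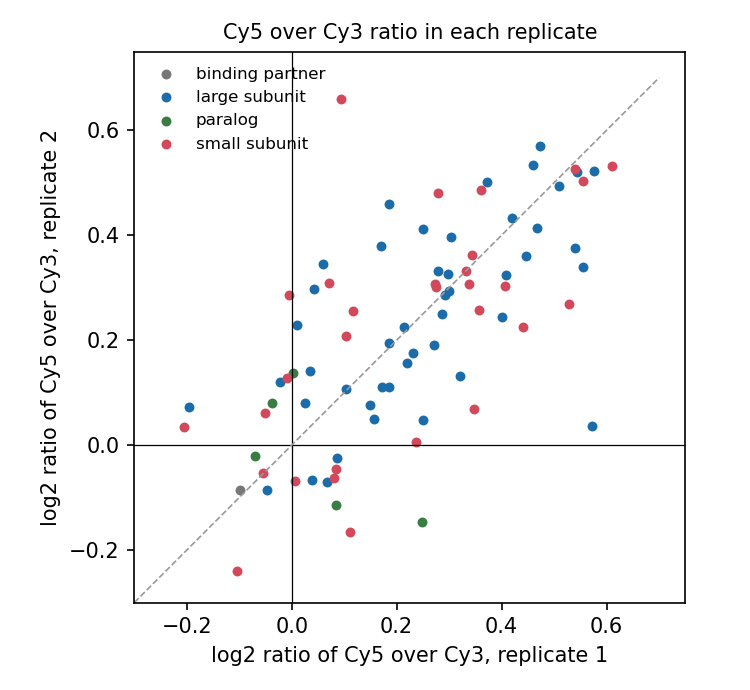
Log2 ratio of Cy5 over Cy3 in replicate 1 (x axis) and replicate 2 (y axis) for each of the 82 members by class, with the line of equality dashed. Most members lie in the upper right, with medians of 0.23 in replicate 1 and 0.24 in replicate 2.

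The Cy5 over Cy3 ratio of the brightest genes was above 0, in the members and in other genes. Of the 82 members, 31 had a mean log2 intensity of 17 or more, and their median Cy5 over Cy3 ratio was 0.35, with 26 called. The 126 other genes as bright had a median of 0.29, with 51.6% called. Between 16 and 17, 38 members had a median of 0.16 with 11 called, and 342 other genes a median of 0.14 with 20.2% called. Below 16, 0 of 13 members were called, and the share called among other genes in the bins below 16 was 1.1% to 6.32%, with medians between -0.064 and 0.016. Over the 82 members, as a description of genes on the same arrays, the ratio correlated with intensity at r = 0.55 (rho = 0.73) and with the probe's GC share at r = 0.0052. Over all tested genes the ratio and intensity correlated at r = 0.010 (rho = -0.050). The median 15p over 0p ratio of the members was -0.014 at 17 or more and 0.0041 between 16 and 17.

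**Figure D4:**
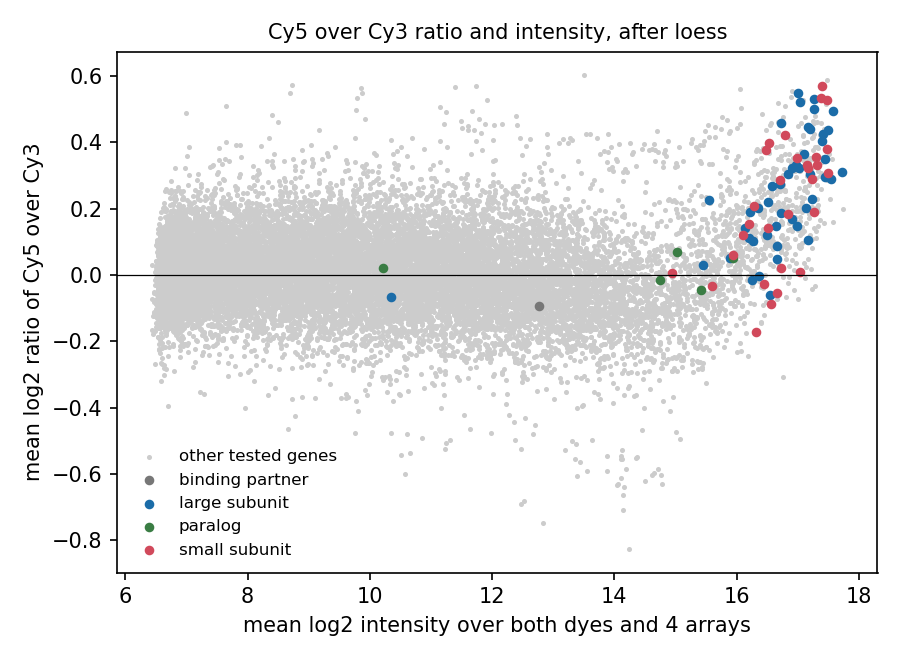
Mean log2 ratio of Cy5 over Cy3 after loess (y axis) against mean log2 intensity over both dyes and all 4 arrays (x axis), with members coloured by class over the other tested genes in grey. The bright members lie with the bright grey genes above 0, and the paralogs and Rps19bp1 lie near 0 at lower intensities.

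Probes of the same gene also differed with brightness. Of the 52 members with several kept probes, the brightest had a higher Cy5 over Cy3 ratio than the dimmest in 42, with medians of 0.272 and 0.0444, while their median 15p over 0p ratios were 0.00166 and 0.00722. The probes of Rpl23, chosen after their values were seen, are an example, and the first 30 of their 60 bases are shown because they read the same gene with different dye ratios. Positions are on mm9 as the files give them.
Rpl23 probe 1, chr11:97639350-97639409: gcagcattgcatgattctccagtgtatttg
Rpl23 probe 2, chr11:97639579-97639638: tgtttctttactttgaagataacgcagggg
Rpl23 probe 3, chr11:97638917-97638976: acaaaacacgcattcttttcaggtctttgc
For Rpl23 probes 1, 2 and 3 the mean log2 intensities were 17.2, 16.6 and 12.8 and the Cy5 over Cy3 log2 ratios 0.45, 0.41 and -0.12. The dye ratio was lowest for the dimmest probe, and the 15p over 0p ratios of the same probes were -0.090, -0.12 and 0.0018.

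Some members share sequence with copies elsewhere in the genome, so the assignment of such a probe to a gene is uncertain. Of the 178 member probes 119 (66.9%) list a predicted transcript accession, against 20.3% of all probes. The files place 9 member probes, of 6 genes, on a chromosome other than that of their gene in RefSeq: Rpl31, Rps29, Rpl12, Rpl13, Rps4x and Rpl36. The tested values of Rpl12 and Rps29 come from such probes, and those of Rpl31, Rpl13, Rps4x and Rpl36 from other probes.

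The genes that surround the ribosome in the cell were read from lists drawn up with earlier results of these data known. Among ribosomal components under other names, Rack1 and the Rps30 precursor Fau had log2 ratios of 15p over 0p of -0.059 ± 0.050 and -0.032 ± 0.030. Their Cy5 over Cy3 ratios were 0.46 and 0.20, and Rack1 was called higher in Cy5. The 74 tested (of 75 listed) mitochondrial ribosomal protein genes, nuclear genes for a separate ribosome, had a median 15p over 0p ratio of 0.0031, with 41 positive, and a Cy5 over Cy3 median of -0.041 with 0 called. The largest ratios among them were those of Mrpl10 at 0.14 ± 0.13 and Mrpl12 at 0.14 ± 0.12, both large subunit proteins of that ribosome.

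The 51 ribosome biogenesis genes had a median of -0.034, with 37 negative and 14 positive. At an unadjusted p under 0.05, 6 were lower in 15p cells and 1 higher, and 0 passed the adjusted threshold. Of all tested genes 3.38% were lower and 2.92% higher at that threshold, and 51.4% had a positive ratio, figures that also stand behind the counts of the lists that follow. Their median was 0.0080 in replicate 1 and -0.075 in replicate 2. Ncl, which encodes the nucleolar protein nucleolin, was at -0.0066 in replicate 1 and -0.49 in replicate 2, and Nop14, a small subunit processome protein, at -0.0054 and -0.49. The Cy5 over Cy3 ratios of Ncl and Nop14 were -0.60 and -0.14, and Ncl was called lower in Cy5. The 36 tested (of 37 listed) translation factors had a median of -0.032, with 25 negative, 4 lower and 1 higher at the same unadjusted threshold, and medians of -0.0068 and -0.087 in the 2 replicates. Their array medians in the same order were -0.046, 0.016, -0.12 and -0.052, the lowest again on the array with the wide spread. The part of that array in the medians of the lists was not tested.

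Of 20 other transcripts known for a TOP start, which include Rack1 and Fau, 14 were negative, 3 were lower and 0 higher at an unadjusted p under 0.05, and their median was -0.017. Pabpc1, the poly(A)-binding protein, was at -0.11 in replicate 1 and -0.31 in replicate 2, and Gas5, a non-coding transcript that hosts small nucleolar RNAs, at -0.089 and -0.23. Eif5, an initiation factor from the list of translation factors and not one of these 20 transcripts, was at -0.12 and -0.18. None of these passed the adjusted threshold (adjusted p = 0.749 in limma for each).

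Among 21 tested (of 22 listed) regulators of ribosomal protein synthesis the median was -0.0096, with 1 higher and 2 lower at an unadjusted p under 0.05. Mxd1, which opposes Myc at its targets, was at 0.11 and 0.27 in the replicates, and Mknk1, a kinase of the cap-binding factor, at -0.14 and -0.25. Of 12 genes of the p53 response to free ribosomal proteins 5 were positive and 7 negative, 2 were higher and 2 lower at the same unadjusted threshold, and 0 passed the adjusted one. Trp53 was at 0.17 and 0.25, Mdm2 at -0.024 and -0.077, and Bax, which promotes cell death, at 0.067 in replicate 1 and -0.68 in replicate 2. The adjusted p of Trp53, Bax, Mxd1 and Mknk1 was 0.749 in limma.

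**Figure D5:**
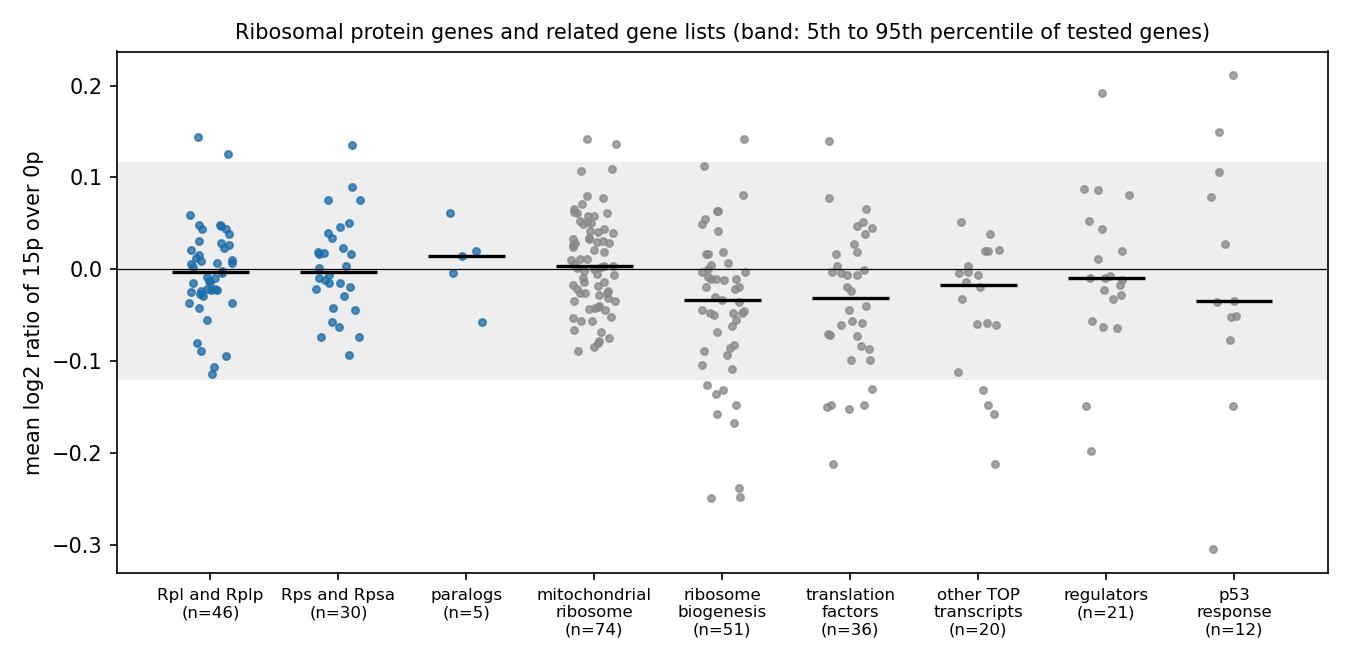
Mean log2 ratio of 15p over 0p for each tested ribosomal protein gene by class (blue) and for the related lists (grey), with the median as a bar and the 5th to 95th percentile of all tested genes as a band. The ribosomal protein medians lie within 0.015 of 0, and those of biogenesis genes and translation factors are at -0.034 and -0.032. The medians of these 2 lists are 0.0080 and -0.0068 in replicate 1, and -0.075 and -0.087 in replicate 2.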

How the data were processed

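Two-colour Agilent 44K mouse arrays were scanned and read with Agilent Feature Extraction 10.7.3.1, per the file headers. From 200 ng of total RNA, 825 ng of each labelled cRNA was hybridised, per the labels. The deposited intensities are mean and local background signals per spot. The deposited value table holds log10 ratios that match the LogRatio column of the files within 0.0045.

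Intensities were corrected with normexp (offset 50) and loess within each array (limma 3.58.1, R 4.3.3), turned to 15p over 0p on the log2 scale and averaged over each dye-swapped pair, giving 2 replicate values. Log2 intensities per RNA come from the same normalised values without scaling between arrays. A probe was kept where all its spots were well above background on all 4 arrays in 15p or in 0p RNA, and a gene took its brightest kept probe. Limma's lmFit and eBayes (prior degrees of freedom 8.85, residual 1) tested the mean against 0, two-sided, with Benjamini-Hochberg adjustment over 17362 genes, and likewise Cy5 over Cy3. The fit was tested on simulated data. The number of arrays limits the precision. Probe genes are as in the files, with RefSeq accessions matching 171 of the 178 member probes.

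Named genes were the 6 highest and 6 lowest ratios, members at an unadjusted p under 0.05, the 4 largest and smallest Cy5 over Cy3 ratios, the 4 genes whose probes differ most, a list of ribosomal proteins of known role, members not tested, and 2 genes per related list. Mdm2, Rpl26l1, the genes with probes on another chromosome, Rpl15 and the Rpl23 probes were added after their values were seen. Single values of 1 member and 1 listed gene are not reported here. Members and lists were chosen with earlier results of these data known. Arrays of the same number hold the same RNAs, per the labels, and were therefore averaged. After centring within each dye orientation, same-numbered arrays correlated at -0.26 across genes.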

Additional observations from a re-analysis of the deposited data

How the results depend on the processing

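With 2 replicates, the unadjusted interval of a typical member's ratio reached about 0.12 to either side on the log2 scale. That width is not the limit of the adjusted test. Over all tested genes the ratios ran from -0.59 to 0.47, and the adjusted test called 0 of them with the processing described above. A member change larger than 0.12 could therefore also go uncalled. The count of members called higher and lower in 15p cells was 0 under every alternative except leave-one-out fits, which gave 0 to 3 higher and 0 to 4 lower, the calls coming when the first replicate's array carrying 15p in Cy5 was left out. At an unadjusted p under 0.05 the count was 7 with median centring without loess (8.05% of all tested genes), 0 with the software's processed intensities, the value table, the mean of kept probes, the replicate block and dye term, separate channels and the crossed pairing (added after seeing the data), and 0 to 15 leaving out an array, where the 15 stand beside 30.6% of all tested genes. The median ratio was 0.080 with median centring (93.9% of members positive, where all tested genes had a median of 0.025), 0.0025 with processed intensities and with the value table, 0.0042 with the mean of kept probes, and -0.011 to 0.0028 leaving out an array or replicate, where 43.9% to 54.9% were positive. Of all tested genes, 60 were called with the replicate block and 60 with the crossed pairing, 2 settings that come to the same fit with 4 arrays, 1 without the filter on dim probes, and 0 to 3117 leaving out an array. Members called higher in Cy5 numbered 0 with processed intensities and the value table, 82 with median centring and 21 with the mean of kept probes, beside 192, 194, 10044 and 416 of all tested genes. The median Cy5 over Cy3 ratio was 0.056, 0.056, 1.14 and 0.138 in the same order, 0.203 without the filter, and 0.234 to 0.237 within single replicates. The cause of these shifts was not tested.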
